A study of Mus musculus with 24 samples.

Results

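The interferon-stimulated genes described here are 33 genes that cells switch on when they sense interferon or viral nucleic acid, taken by symbol from the 49315 genes of a mouse liver RNA-seq count table. They comprise 10 genes of the IFIT, OAS and MX families, 5 interferon-induced GTPases (Gbp2, Gbp3, Gbp7, Igtp and Irgm1), 4 transcription factors (Irf1, Irf7, Irf9 and Stat2), 3 nucleic acid sensors (Ifih1, Dhx58 and Zbp1), 3 genes of the ISG15 system (Isg15, Usp18 and Trim25) and 8 other effectors. The libraries fell into 4 groups of 6. CCA.Mdr2-/- livers carried cholangiocarcinoma, a bile duct cancer, raised by transduction with the oncogenes AKT and YAP1 in mice that lack Mdr2 (Abcb4). Ctrl.Mdr2-/- livers came from mice of that genotype given an empty transduction. CCA.Wild-type and Ctrl.Wild-type livers are the corresponding tumour-bearing and empty-transduced groups with intact Abcb4, so that both genotypes and all controls share the transduction step. The series title describes the oncogenes as delivered by transposons. Age, sex and strain are not used here, and the labels do not say that each library is a separate animal, so p-values measure the spread between these libraries. Each library is whole liver tissue, in which fewer cells of a type and less RNA per cell cannot be told apart.

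Type I and type III interferons act through receptors whose JAK kinases signal to the complex ISGF3, which holds STAT2 and IRF9 and binds the interferon-stimulated response element (ISRE) in promoters such as those of the IFIT genes. Interferon gamma (type II) acts through promoter elements such as the gamma-activated site (GAS) and through IRF1, and it is a strong inducer of the GBP and IRG GTPases. The IFIT, OAS and MX proteins are best known for restricting viruses, and the GTPases for attacking vacuoles that hold bacteria or parasites. Abcb4 encodes the canalicular transporter that puts phosphatidylcholine into bile, and mice without it develop bile duct inflammation and fibrosis.

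RefSeq promoter windows (build GRCm38.p6, 250 bases before to 50 after the annotated start) were matched by symbol for 25 of the 33 members. Of these, 6 windows are shown because their genes carry the contrasts below: a pair of IFIT genes that differed between groups, a pair of GTPases not called in any comparison by edgeR with TMM scaling, and the neighbouring genes Rsad2 and Cmpk2, which differed in opposite directions. Each is written 5′ to 3′ on the strand of the gene, and capitals mark matches to the ISRE core, which is GAAA, then any 2 bases, then GAAA, or its reverse complement with TTTC in place of GAAA.
Ifit1: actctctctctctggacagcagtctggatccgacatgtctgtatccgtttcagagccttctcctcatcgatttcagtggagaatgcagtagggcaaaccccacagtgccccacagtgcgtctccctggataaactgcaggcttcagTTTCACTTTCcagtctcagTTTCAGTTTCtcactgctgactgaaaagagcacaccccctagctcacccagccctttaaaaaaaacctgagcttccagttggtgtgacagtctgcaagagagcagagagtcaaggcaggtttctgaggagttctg
Ifit3: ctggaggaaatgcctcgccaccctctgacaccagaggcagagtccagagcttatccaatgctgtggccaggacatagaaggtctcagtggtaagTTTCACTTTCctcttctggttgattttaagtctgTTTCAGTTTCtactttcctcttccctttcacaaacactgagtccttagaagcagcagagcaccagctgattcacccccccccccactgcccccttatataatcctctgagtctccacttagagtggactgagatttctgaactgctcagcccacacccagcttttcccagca
Irgm1: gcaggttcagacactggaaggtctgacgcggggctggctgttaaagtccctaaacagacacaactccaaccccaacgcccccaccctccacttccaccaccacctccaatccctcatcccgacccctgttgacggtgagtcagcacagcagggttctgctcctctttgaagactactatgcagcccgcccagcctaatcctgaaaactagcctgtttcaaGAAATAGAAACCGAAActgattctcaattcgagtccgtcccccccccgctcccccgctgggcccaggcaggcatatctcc
Igtp: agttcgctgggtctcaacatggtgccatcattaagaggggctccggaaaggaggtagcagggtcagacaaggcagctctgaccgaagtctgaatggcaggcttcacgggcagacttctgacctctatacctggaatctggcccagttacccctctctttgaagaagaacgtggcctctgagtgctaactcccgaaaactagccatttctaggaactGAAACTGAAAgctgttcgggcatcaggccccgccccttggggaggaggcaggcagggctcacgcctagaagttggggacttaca
Rsad2: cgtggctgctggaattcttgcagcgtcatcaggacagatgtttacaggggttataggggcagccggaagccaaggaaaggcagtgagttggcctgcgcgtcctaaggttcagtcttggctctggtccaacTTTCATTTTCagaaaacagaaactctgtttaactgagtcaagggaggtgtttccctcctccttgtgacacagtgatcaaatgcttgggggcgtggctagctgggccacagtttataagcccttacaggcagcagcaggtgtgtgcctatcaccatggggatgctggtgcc
Cmpk2: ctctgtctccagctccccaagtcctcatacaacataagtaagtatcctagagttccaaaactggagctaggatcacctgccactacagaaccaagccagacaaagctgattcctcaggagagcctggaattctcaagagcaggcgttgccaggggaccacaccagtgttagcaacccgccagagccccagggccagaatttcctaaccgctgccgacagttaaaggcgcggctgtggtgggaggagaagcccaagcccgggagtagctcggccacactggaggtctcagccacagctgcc
The windows are chr19:34640639-34640938 (plus strand) for Ifit1, chr19:34583279-34583578 (plus strand) for Ifit3, chr11:48871371-48871670 (minus strand) for Irgm1, chr11:58199306-58199605 (plus strand) for Igtp, chr12:26456403-26456702 (minus strand) for Rsad2 and chr12:26468965-26469264 (plus strand) for Cmpk2. Matches on either strand were counted and may overlap: Ifit1, Ifit3 and Irgm1 hold 2 each, with those of Irgm1 overlapping, Igtp and Rsad2 hold 1, and the window of Cmpk2 holds 0. Some genes have more than 1 window, and a gene was counted once if any of its windows held a match. At least 1 ISRE match was found for 14 of the 25 members (56%), against 3.99% of all 27018 genes with a window. Among the classes it was found for 4 of 7 IFIT, OAS and MX genes and 5 of 5 GTPases. The GAS letters TTCNNNGAA were found for 7 of the 25 members (28%), against 9.55% of all genes with a window, with 2 of 7 IFIT, OAS and MX genes and 2 of 5 GTPases. A match of letters is a description of the window.

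Libraries held 20976459 to 30288385 counts, so that 1 CPM (a count divided by the library size in megacounts, after TMM scaling, which corrects for the composition of each library) rests on 16.4 to 34.2 counts. Abcb4 lay at 21.7 to 59.3 CPM (median 25.9) in CCA.Mdr2-/- livers and 23.8 to 41.6 CPM (median 31.3) in Ctrl.Mdr2-/- livers, against 165 to 361 CPM (median 215) in CCA.Wild-type livers and 244 to 377 CPM (median 274) in Ctrl.Wild-type livers, in the direction of the labels in all 24 libraries. An earlier analysis of these data found CCA.Wild-type replicate 6 and CCA.Mdr2-/- replicate 1 apart from their groups, and counts without both are given below. Summed over 8 hepatocyte markers, the level was 32217 to 66631 CPM in CCA.Mdr2-/- livers, 79344 to 96359 in Ctrl.Mdr2-/- livers, 55136 to 101054 in CCA.Wild-type livers and 117757 to 144228 in Ctrl.Wild-type livers, so the liver label holds in every library. Summed over 8 cholangiocyte markers it was 1113 to 4003 CPM in CCA.Mdr2-/- livers, 61.9 to 329 in Ctrl.Mdr2-/- livers, 186 to 1398 in CCA.Wild-type livers and 53.2 to 134 in Ctrl.Wild-type livers. Of these markers Spp1 reached 3826 CPM and the next, Sox9, 49.5 CPM, so the high sums are mostly Spp1. All 33 members passed the filter on low counts, among 17216 genes tested.

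Ctrl.Wild-type livers had the lowest group mean for 22 of the 33 members, so that the means of the other 3 groups all lay above them for those genes. In CCA.Wild-type livers 21 members were higher and 1 lower than in Ctrl.Wild-type livers at an adjusted p under 0.05 (edgeR quasi-likelihood test, Benjamini-Hochberg over all genes), where 28.4% of all genes were called, 16.9% up and 11.5% down. Ctrl.Mdr2-/- livers had 22 members higher and 1 lower than Ctrl.Wild-type livers, with 50.5% of all genes called, 26.2% up and 24.3% down. In CCA.Mdr2-/- livers 7 members were higher and 3 lower than in Ctrl.Mdr2-/- livers, a share of the list near the 34.8% of all genes called (17.9% up, 17.0% down). With the share of nuclear non-coding RNA as a covariate, whose values are given with the cell markers, the Mdr2-/- counts became 1 higher and 0 lower, with log2 fold changes that ranged from 1.12 for Ifit2 to 0.04 for Isg15 among the 7 that had been higher. Members whose groups did not overlap and that were higher numbered 15, 16 and 2 in these 3 comparisons, against 7.27%, 13.7% and 7.38% of all genes. The median log2 fold change over the members was 0.94, 0.82 and 0.23 in these 3 comparisons, against 0.03, 0.03 and 0.04 over all genes tested. The first 2 comparisons share the Ctrl.Wild-type libraries and the last 2 share the Ctrl.Mdr2-/- libraries. In the wild-type tumour comparison all CCA.Wild-type sample title numbers lie above all Ctrl.Wild-type ones. Title order and tumour therefore cannot be told apart there. The plot of member levels by library divides each gene by its Ctrl.Wild-type mean, so the Ctrl.Wild-type block is pale by construction. The other 3 blocks show levels relative to that mean.

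**Figure D1:**
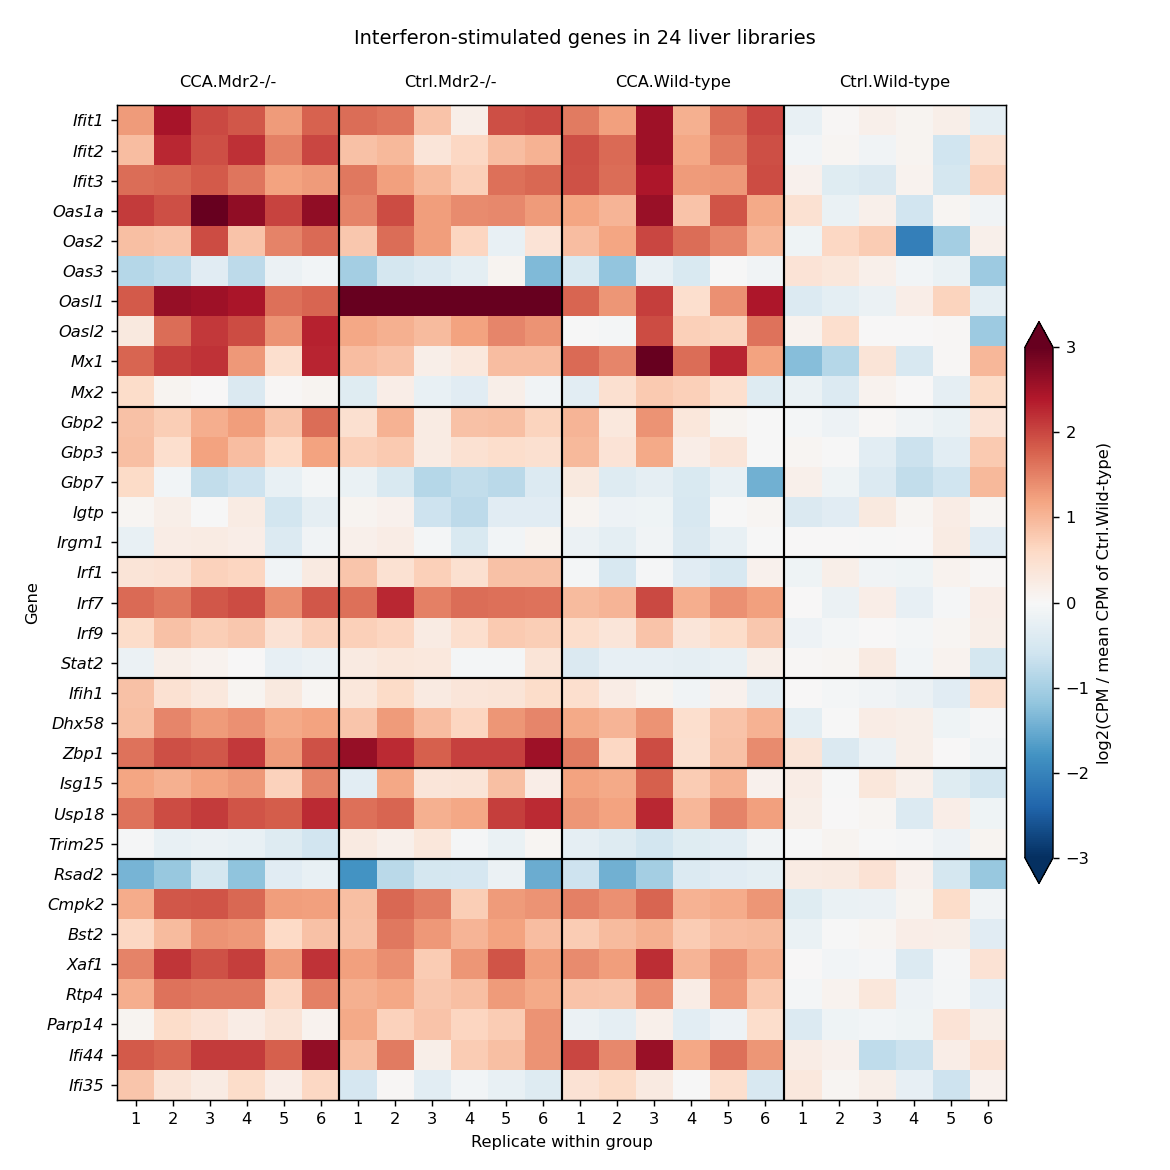
Level of each of the 33 members (vertical axis, grouped by class) in each of the 24 libraries (horizontal axis, 6 per group), as log2 of CPM over the mean CPM in Ctrl.Wild-type livers, with colours ending at the limits of the scale bar. Most members are higher in CCA.Mdr2-/-, Ctrl.Mdr2-/- and CCA.Wild-type libraries than in Ctrl.Wild-type libraries, with Oasl1 highest in Ctrl.Mdr2-/- livers and Irgm1 and Igtp on both sides of 0.

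The size of the tumour effect differed between the genotypes for 12 members, all in the same direction, where 25.3% of all genes were called, 11.9% up and 13.4% down. These were Ifit1, Ifit3, Oasl1, Irf7, Irf9, Dhx58, Zbp1, Usp18, Cmpk2, Bst2, Xaf1 and Parp14, each with a lower log2 tumour effect in Mdr2-/- than in wild-type mice. The difference of effects contains the wild-type tumour comparison, in which title order and tumour cannot be told apart. No member was called with a larger effect in Mdr2-/- mice: 0 were called up by edgeR, 0 reached an unadjusted p under 0.05, and DESeq2 also called 0. Between the tumour-bearing groups CCA.Mdr2-/- and CCA.Wild-type, 2 members were higher (Oas1a and Irf1) and none was lower, with 11.1% of all genes called, 7.13% up and 689 genes down. Other scales moved this count, to 12 higher under total library size, 13 on log2(TPM + 1) and 12 on log2(TPM + 0.1), where the median of all genes moved by 0.25, 0.20 and 0.27. For the lower direction 0 members reached an unadjusted p under 0.05 in edgeR and DESeq2 called 0. Without CCA.Wild-type replicate 3, in which 21 of the 33 members had their highest value in the group, 9 members were higher in CCA.Mdr2-/- than in CCA.Wild-type livers, with Gbp2, Irf7, Oasl2, Rtp4, Usp18, Xaf1 and Zbp1 added. Without the pair of libraries apart, 8 members rose and 3 fell in the Mdr2-/- tumour comparison, 21 rose and 1 fell in the wild-type one, 23 were higher and 2 lower in Ctrl.Mdr2-/- than in Ctrl.Wild-type livers, 10 differed in tumour effect, and 5 were higher in CCA.Mdr2-/- than in CCA.Wild-type livers.

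**Figure D2:**
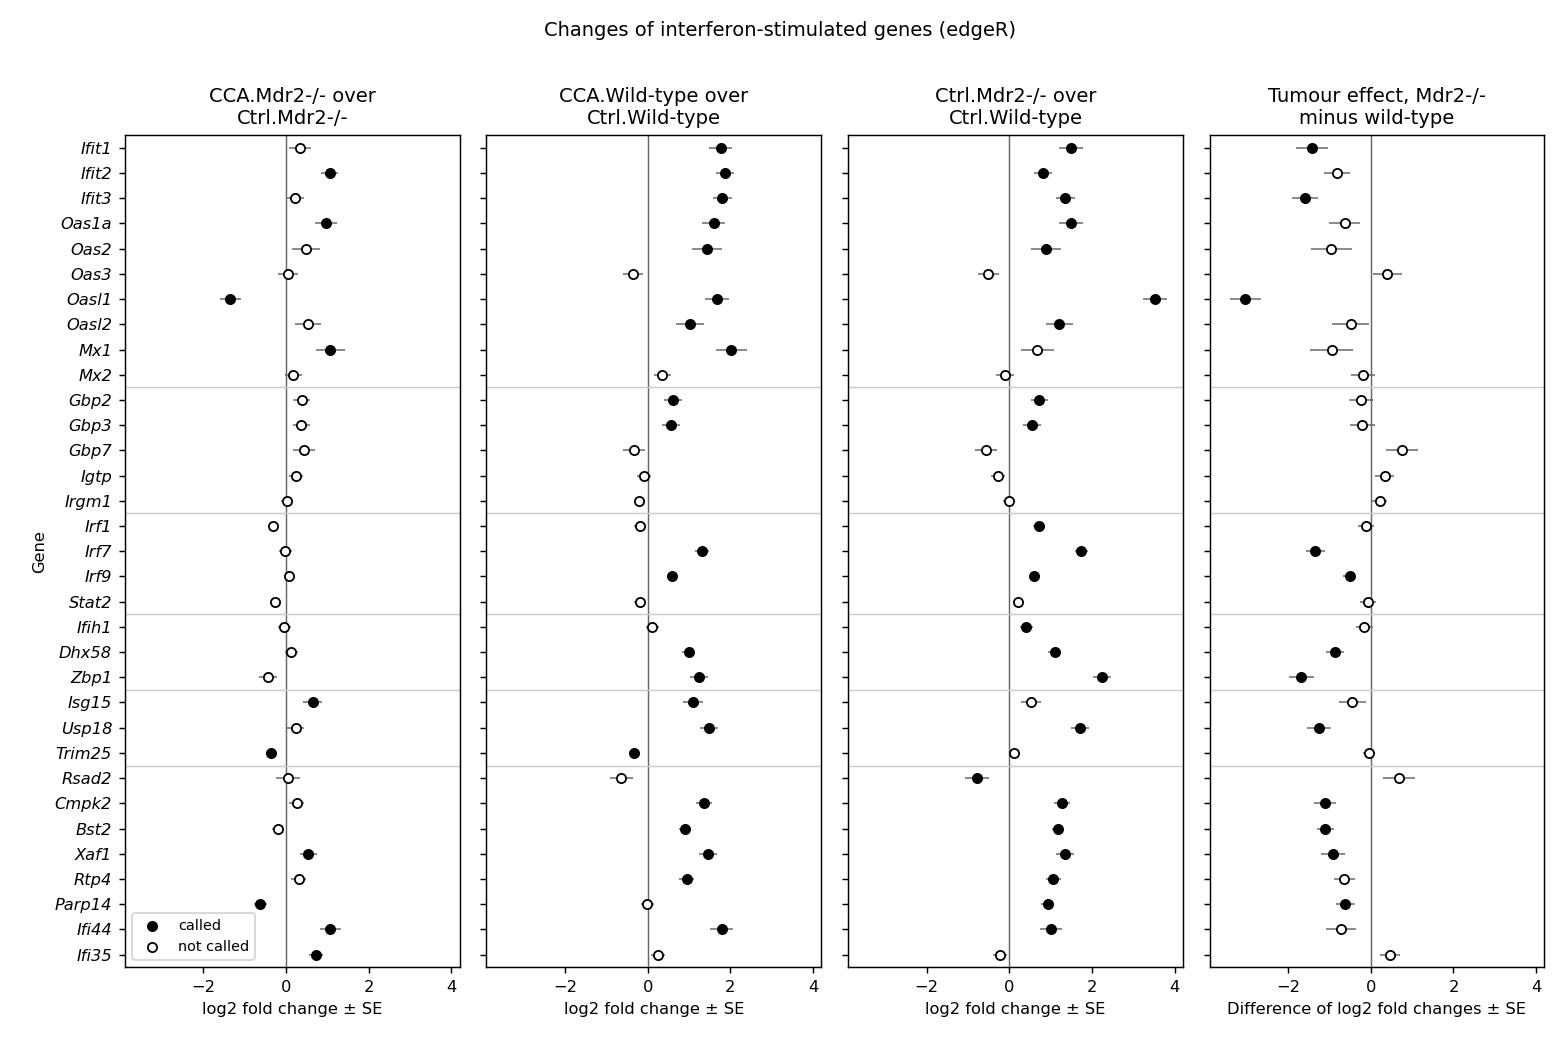
Log2 fold change with its standard error for the 33 members (vertical axis) in the Mdr2-/- tumour comparison, the wild-type tumour comparison, the genotype comparison in control livers and the difference of the tumour effects, with filled points for an adjusted p under 0.05. The IFIT, OAS and MX genes reach 2.02 in the wild-type tumour comparison while the 3 GTPases Gbp7, Igtp and Irgm1 pass in no comparison, and Oasl1 stands at 3.53 in control livers.

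The IFIT proteins bind RNA that lacks the methylation of host messenger caps. Ifit1 lay at 4.89 to 13.7 CPM (median 7.25) in CCA.Wild-type livers, against 1.91 to 2.66 CPM (median 2.44) in Ctrl.Wild-type livers, with no overlap (log2 fold change 1.76 ± 0.28, adjusted p = 5.47e-05, where ± is the standard error and n = 6 per group throughout). In Mdr2-/- mice it lay at 5.69 to 13.1 CPM (median 8.25) in CCA.Mdr2-/- livers and 2.67 to 9.28 CPM (median 7.35) in Ctrl.Mdr2-/- livers. The Mdr2-/- groups overlapped and their difference did not pass (0.33 ± 0.27, adjusted p = 0.329), while every Ctrl.Mdr2-/- library lay above every Ctrl.Wild-type library, the closest at 2.67 and 2.66 CPM (1.50 ± 0.28, adjusted p = 0.000142). Ifit3 received the same calls, with 5.53 to 8.52 CPM (median 7.42) in CCA.Mdr2-/- livers, 3.94 to 7.91 CPM (median 6.38) in Ctrl.Mdr2-/- livers, 5.76 to 12.7 CPM (median 8.33) in CCA.Wild-type livers and 1.66 to 3.86 CPM (median 2.21) in Ctrl.Wild-type livers. It rose in the wild-type tumour comparison (1.81 ± 0.23, adjusted p = 2.72e-06) and was higher in Ctrl.Mdr2-/- than in Ctrl.Wild-type livers (1.36 ± 0.23, adjusted p = 4.3e-05). Ifit2 rose in both genotypes. It lay at 8.47 to 21.2 CPM (median 17.4) in CCA.Mdr2-/- livers, against 5.71 to 9.10 CPM (median 8.31) in Ctrl.Mdr2-/- livers (1.05 ± 0.22, adjusted p = 0.00105), and at 9.91 to 25.9 CPM (median 15.6) in CCA.Wild-type livers, against 2.92 to 6.04 CPM (median 4.38) in Ctrl.Wild-type livers (1.87 ± 0.22, adjusted p = 1.22e-06). Its groups overlapped in Mdr2-/- mice and were separate in wild-type mice. The test of the difference of effects called Ifit1 (-1.43 ± 0.39, adjusted p = 0.0101) and Ifit3 (-1.60 ± 0.31, adjusted p = 0.00115) but not Ifit2 (-0.82 ± 0.31, adjusted p = 0.0514) in edgeR. DESeq2 called Ifit2 (-0.81 ± 0.32, adjusted p = 0.0427), and edgeR did so with no filter on low counts (-0.91) and when 1 library was left out, either CCA.Mdr2-/- replicate 2 or 4, Ctrl.Mdr2-/- replicate 3, CCA.Wild-type replicate 2, 4 or 5, or Ctrl.Wild-type replicate 4 or 6 (-0.93 to -0.85). Ifit3 has a near-identical copy, Ifit3b, among which reads may be split, so its level is uncertain.

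The OAS enzymes make short 2′-5′ oligoadenylates on double-stranded RNA, which activate RNase L, and mouse Oasl1 is a relative without that activity that is known to hold back translation of Irf7. Oasl1 had the highest fold change of the list. It lay at 3.82 to 7.41 CPM (median 5.47) in CCA.Mdr2-/- livers and 9.68 to 21.2 CPM (median 12.9) in Ctrl.Mdr2-/- livers, against 1.73 to 6.52 CPM (median 3.59) in CCA.Wild-type livers and 0.916 to 1.92 CPM (median 1.04) in Ctrl.Wild-type livers. Every Ctrl.Mdr2-/- library was above every library of the other 3 groups. Ctrl.Mdr2-/- livers exceeded Ctrl.Wild-type livers by 3.53 ± 0.29, adjusted p = 1.03e-09. The tumour comparisons ran in opposite directions, with a fall in CCA.Mdr2-/- against Ctrl.Mdr2-/- livers (-1.35 ± 0.25, adjusted p = 0.000461) and a rise in CCA.Wild-type against Ctrl.Wild-type livers (1.68 ± 0.28, adjusted p = 9.15e-05), and their difference was the largest of the 33 (-3.03 ± 0.38, adjusted p = 8.05e-06). Oas1a showed another order. It rose in both tumour comparisons, with 3.40 to 7.19 CPM (median 4.70) in CCA.Mdr2-/- livers against 2.10 to 3.43 CPM (median 2.38) in Ctrl.Mdr2-/- livers (0.97 ± 0.26, adjusted p = 0.00689), and 1.60 to 5.37 CPM (median 1.98) in CCA.Wild-type livers against 0.596 to 1.22 CPM (median 0.867) in Ctrl.Wild-type livers (1.60 ± 0.28, adjusted p = 0.000167). The groups overlapped by a narrow margin in Mdr2-/- mice and were separate in wild-type mice. Oas1a was also higher in CCA.Mdr2-/- than in CCA.Wild-type livers (0.86 ± 0.26, adjusted p = 0.0293), a call that was lost when CCA.Mdr2-/- replicate 3, 4 or 6 or CCA.Wild-type replicate 1, 2, 4 or 6 was left out (0.72 to 0.82). It has a close copy, Oas1g, among which reads may be split.

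Of the other OAS genes, Oas2 and Oasl2 rose in the wild-type tumour comparison and were higher in Ctrl.Mdr2-/- than in Ctrl.Wild-type livers, while Oas3 passed in no comparison. Oas2 was scarce, at 1.01 to 2.14 CPM (median 1.33) in CCA.Wild-type livers and 0.128 to 0.904 CPM (median 0.540) in Ctrl.Wild-type livers (1.43 ± 0.36, adjusted p = 0.00469). Its call in control livers (0.89 ± 0.37, adjusted p = 0.0467) was lost when Ctrl.Mdr2-/- replicate 1, 2 or 3 or Ctrl.Wild-type replicate 1, 4, 5 or 6 was left out (0.68 to 0.94). Oasl2 lay at 1.75 to 7.03 CPM (median 2.95) in CCA.Wild-type livers and 0.863 to 2.57 CPM (median 1.86) in Ctrl.Wild-type livers (1.03 ± 0.33, adjusted p = 0.0215), a call lost without CCA.Wild-type replicate 3, CCA.Wild-type replicate 6 or Ctrl.Wild-type replicate 6 (0.74 to 0.87). In control livers Oasl2 was separate between the genotypes (1.21 ± 0.33, adjusted p = 0.00387). Oas3 was the OAS gene whose mean was highest in Ctrl.Wild-type livers, at 2.06 to 4.71 CPM (median 3.75) in CCA.Wild-type livers, against 2.23 to 6.29 CPM (median 4.84) in Ctrl.Wild-type livers (-0.35 ± 0.25, adjusted p = 0.302). Its value between control livers (-0.50 ± 0.25, adjusted p = 0.0894) passed without Ctrl.Mdr2-/- replicate 5 or Ctrl.Wild-type replicate 6 (-0.66 to -0.64). The MX proteins are dynamin-like GTPases that block virus replication. Mx1 lay at 0.421 to 1.46 CPM (median 1.12) in CCA.Mdr2-/- livers, against 0.334 to 0.563 CPM (median 0.552) in Ctrl.Mdr2-/- livers (1.08 ± 0.35, adjusted p = 0.0215), and at 0.690 to 2.58 CPM (median 0.960) in CCA.Wild-type livers, against 0.122 to 0.591 CPM (median 0.259) in Ctrl.Wild-type livers (2.02 ± 0.38, adjusted p = 0.00032). It was the largest rise of the list in the wild-type tumour comparison and rests on few counts. The Mdr2-/- call was lost without CCA.Mdr2-/- replicate 6 (0.95). Mx2 overlapped between all groups, at 2.39 to 5.54 CPM in the 24 libraries. In the wild-type tumour comparison it was higher only under total library size (0.68), on log2(TPM + 1) (0.41) and on log2(TPM + 0.1) (0.60). The median of all genes moved there by 0.30, 0.17 and 0.28.

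Of the 10 IFIT, OAS and MX genes, 8 rose in the wild-type tumour comparison (median log2 fold change 1.64), 7 were higher in Ctrl.Mdr2-/- than in Ctrl.Wild-type livers (1.05), and 3 rose and 1 fell in the Mdr2-/- tumour comparison (0.40). The shares of all genes were 16.9% and 26.2% in the first 2 comparisons, and 17.9% up and 17.0% down in the last. The 5 GTPases had lower medians in the first 2 of these comparisons. In both comparisons against Ctrl.Wild-type livers 2 of them were higher, Gbp2 and Gbp3, with medians of -0.09 for the tumour and -0.01 for the genotype. In the Mdr2-/- tumour comparison 0 of the 5 were called by edgeR (median 0.37), 0 reached an unadjusted p under 0.05, and DESeq2 called 0. Scaling by total library size instead of TMM moved the median of all genes by 0.24 in that comparison and called 4 of the 5 GTPases up, namely Gbp2, Gbp3, Gbp7 and Igtp (median 0.63). With the nuclear non-coding share as a covariate the median was -0.08 and 0 were called. The same scaling gave GTPase medians of 0.20 for the wild-type tumour and 0.29 for the genotype in controls, where the median of all genes moved by 0.30 in both, so the sign of these medians depends on the scaling.

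**Figure D3:**
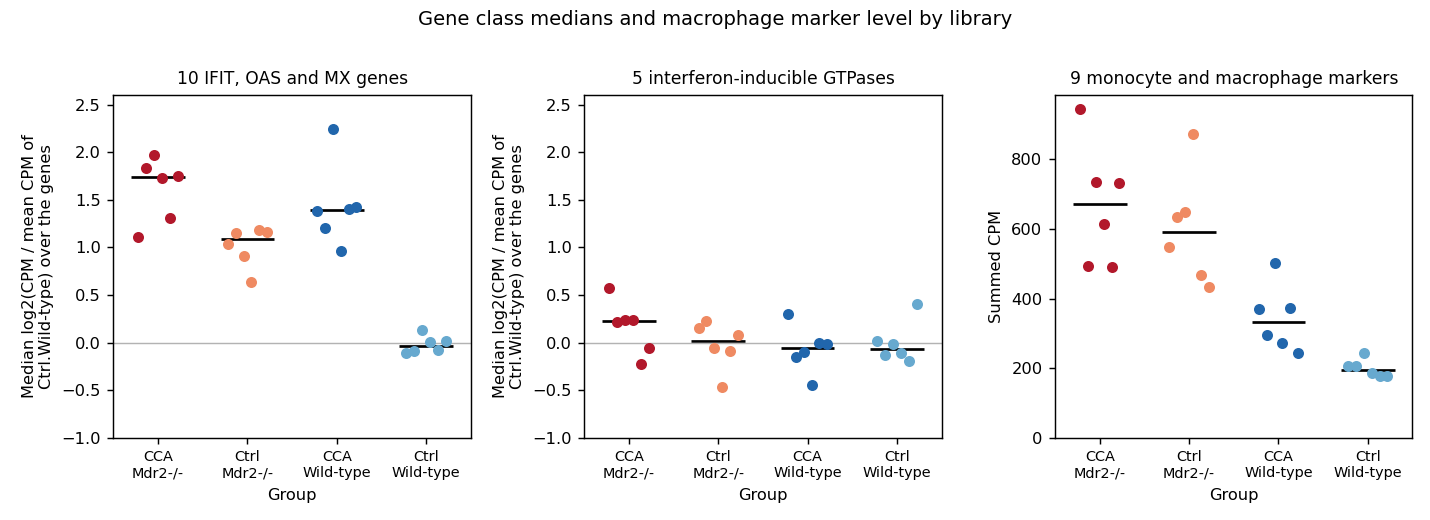
Per library (points, 6 per group on the horizontal axis), the median over the 10 IFIT, OAS and MX genes and over the 5 GTPases of log2 CPM over the Ctrl.Wild-type mean, and the summed CPM of 9 monocyte and macrophage markers. The IFIT, OAS and MX median lies at 0.64 to 2.24 in the other 3 groups and at -0.11 to 0.13 in Ctrl.Wild-type livers, the GTPase medians overlap between all groups, and the marker sum is highest in the Mdr2-/- groups. Of these markers Lyz2 reached 756 CPM and the next, Csf1r, 118 CPM.

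The guanylate-binding proteins assemble on the membranes of intracellular pathogens. Gbp2 lay at 15 to 28.5 CPM (median 17.7) in CCA.Mdr2-/- livers, 10.6 to 18.6 CPM (median 15.4) in Ctrl.Mdr2-/- livers, 8.94 to 22.9 CPM (median 11.3) in CCA.Wild-type livers and 7.81 to 11.8 CPM (median 8.43) in Ctrl.Wild-type livers. Neighbouring groups overlapped in that order. Gbp2 was higher in Ctrl.Mdr2-/- than in Ctrl.Wild-type livers (0.73 ± 0.21, adjusted p = 0.00612). Its rise in the wild-type tumour comparison (0.61 ± 0.21, adjusted p = 0.0313) was lost when CCA.Wild-type replicate 1 or 3 or Ctrl.Wild-type replicate 1, 2, 4 or 5 was left out (0.40 to 0.60), and was 0.40 without CCA.Wild-type replicate 3. Gbp3 moved alike, at 5.83 to 13 CPM (median 7.70) in CCA.Wild-type livers and 3.75 to 10.2 CPM (median 5.27) in Ctrl.Wild-type livers (0.57 ± 0.21, adjusted p = 0.047), a call lost when CCA.Wild-type replicate 1 or 3 or Ctrl.Wild-type replicate 1 to 5 was left out (0.42 to 0.59). Its call between control livers (0.55 ± 0.21, adjusted p = 0.0367) was lost when Ctrl.Mdr2-/- replicate 1, 2 or 5 or Ctrl.Wild-type replicate 3, 4 or 5 was left out (0.46 to 0.55). Gbp7 was more abundant, with 21.9 to 73 CPM (median 47.3) in CCA.Wild-type livers and 35.7 to 116 CPM (median 49.5) in Ctrl.Wild-type livers, and passed in no comparison with TMM scaling and all libraries. It was lower in Ctrl.Mdr2-/- than in Ctrl.Wild-type livers without the pair of libraries apart (-0.56), and higher in the Mdr2-/- tumour comparison under total library size (0.66). Igtp (Irgm3) and Irgm1 are immunity-related GTPases that regulate the other members of their family. Irgm1 lay at 32.7 to 51.2 CPM (median 45.2) in CCA.Mdr2-/- livers, 31.4 to 50.7 CPM (median 43.8) in Ctrl.Mdr2-/- livers, 31.9 to 43.1 CPM (median 37.7) in CCA.Wild-type livers and 34.3 to 51.8 CPM (median 43.7) in Ctrl.Wild-type livers, with all 4 ranges overlapping. On the TPM values it was higher in Ctrl.Mdr2-/- than in Ctrl.Wild-type livers, by 0.41 as log2(TPM + 1) and 0.44 as log2(TPM + 0.1), against -0.01 ± 0.13 on the counts, while these scales moved the median of all genes by 0.27 and 0.42. Under total library size Irgm1 was higher in CCA.Mdr2-/- than in CCA.Wild-type livers (0.45). Igtp likewise overlapped in all groups, with 32.7 to 56.6 CPM (median 48.7) in CCA.Mdr2-/- livers and 27.9 to 52.2 CPM (median 37.8) in Ctrl.Mdr2-/- livers, against 34.5 to 50.8 CPM (median 46) in CCA.Wild-type livers and 35.4 to 58.9 CPM (median 49.9) in Ctrl.Wild-type livers, and it was higher in the Mdr2-/- tumour comparison under total library size (0.48). Their windows hold the ISRE letters shown above, as do those of Ifit1 and Ifit3. Per length, in the authors' TPM (transcript abundance corrected for length), Igtp had the second highest mean level of the 33 members over the 24 libraries (46.7 TPM) and Mx1 the lowest (0.468 TPM), with Ifit1 at 5.39 and Irgm1 at 15.4 TPM.

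Other GTPases of these families were called in the Mdr2-/- tumour comparison. Of 13 further GBP, IRG and related GTPases tested, 7 rose and 1 fell in the Mdr2-/- tumour comparison, where 17.9% of all genes rose and 17.0% fell (median log2 fold change 0.78). In the wild-type tumour comparison 2 rose, a share near the 16.9% of all genes, and 2 were higher and 3 lower in Ctrl.Mdr2-/- than in Ctrl.Wild-type livers, no more than the 26.2% and 24.3% of all genes. Gbp4 lay at 7.15 to 13.9 CPM (median 7.91) in CCA.Mdr2-/- livers, against 3.55 to 4.39 CPM (median 4.06) in Ctrl.Mdr2-/- livers, with no overlap (1.19 ± 0.24, adjusted p = 0.000977). The test of the difference of tumour effects also called Gbp4 (1.46 ± 0.34, adjusted p = 0.0038). It was lower in Ctrl.Mdr2-/- than in Ctrl.Wild-type livers (-0.80 ± 0.24, adjusted p = 0.008), where it lay at 5.10 to 14.8 CPM (median 5.51). Tgtp2 (1.06 ± 0.29) and Gbp9 (1.0 ± 0.20) rose in the Mdr2-/- tumour comparison, while Irgm2 fell (-0.76 ± 0.25, adjusted p = 0.0249). Reads of Tgtp1 and Tgtp2, and of Gbp6 and Gbp10, may be split between near-identical copies.

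Irf7 is the factor that amplifies type I interferon production, and Irf9 is the DNA-binding subunit of ISGF3. Irf7 lay at 19.1 to 28.2 CPM (median 24.8) in CCA.Mdr2-/- livers, 20.6 to 34.7 CPM (median 22.9) in Ctrl.Mdr2-/- livers, 14 to 28.8 CPM (median 16.3) in CCA.Wild-type livers and 6.09 to 8.35 CPM (median 7.24) in Ctrl.Wild-type livers. Ctrl.Wild-type livers were separate from the other 3 groups. The rise was 1.32 ± 0.17, adjusted p = 2.09e-06 in the wild-type tumour comparison and 1.75 ± 0.17, adjusted p = 1.22e-08 between the genotypes in control livers, while CCA.Mdr2-/- and Ctrl.Mdr2-/- livers differed by -0.01 ± 0.16, adjusted p = 0.952. Irf9 repeated this at a smaller size, at 0.59 ± 0.12 and 0.61 ± 0.12 (adjusted p = 0.000481 and 0.000161). The difference of the tumour effects was called for both, at -1.34 ± 0.23, adjusted p = 0.000314 for Irf7 and -0.51 ± 0.16, adjusted p = 0.0247 for Irf9. The call of Irf9 was lost with upper-quartile factors, on both TPM scales, without the pair of libraries apart and with either covariate, while that of Irf7 was kept. Irf1, a factor also induced by interferon gamma, was called by genotype and in neither tumour comparison. It lay at 16.7 to 29.2 CPM (median 24) in CCA.Mdr2-/- livers and 24.9 to 33.2 CPM (median 30.9) in Ctrl.Mdr2-/- livers, against 12.9 to 19.8 CPM (median 15.9) in CCA.Wild-type livers and 16.4 to 20.4 CPM (median 17.7) in Ctrl.Wild-type livers. Mdr2-/- livers were higher among controls, without overlap (0.72 ± 0.14, adjusted p = 0.000154), and among tumour-bearing livers (0.60 ± 0.14, adjusted p = 0.00536). The tumour values were -0.31 ± 0.14, adjusted p = 0.0772 in Mdr2-/- and -0.18 ± 0.14, adjusted p = 0.331 in wild-type mice, of which the first passed without CCA.Mdr2-/- replicate 3 or Ctrl.Mdr2-/- replicate 2 (both -0.37). Stat2, a subunit of ISGF3, lay at 23.7 to 45.1 CPM in the 24 libraries and passed in no comparison. Scaled by total library size it was higher in Ctrl.Mdr2-/- than in Ctrl.Wild-type livers (0.51) and in CCA.Mdr2-/- than in CCA.Wild-type livers (0.39), and on the TPM scales it was higher in Ctrl.Mdr2-/- livers (0.64 and 0.67).

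**Figure D4:**
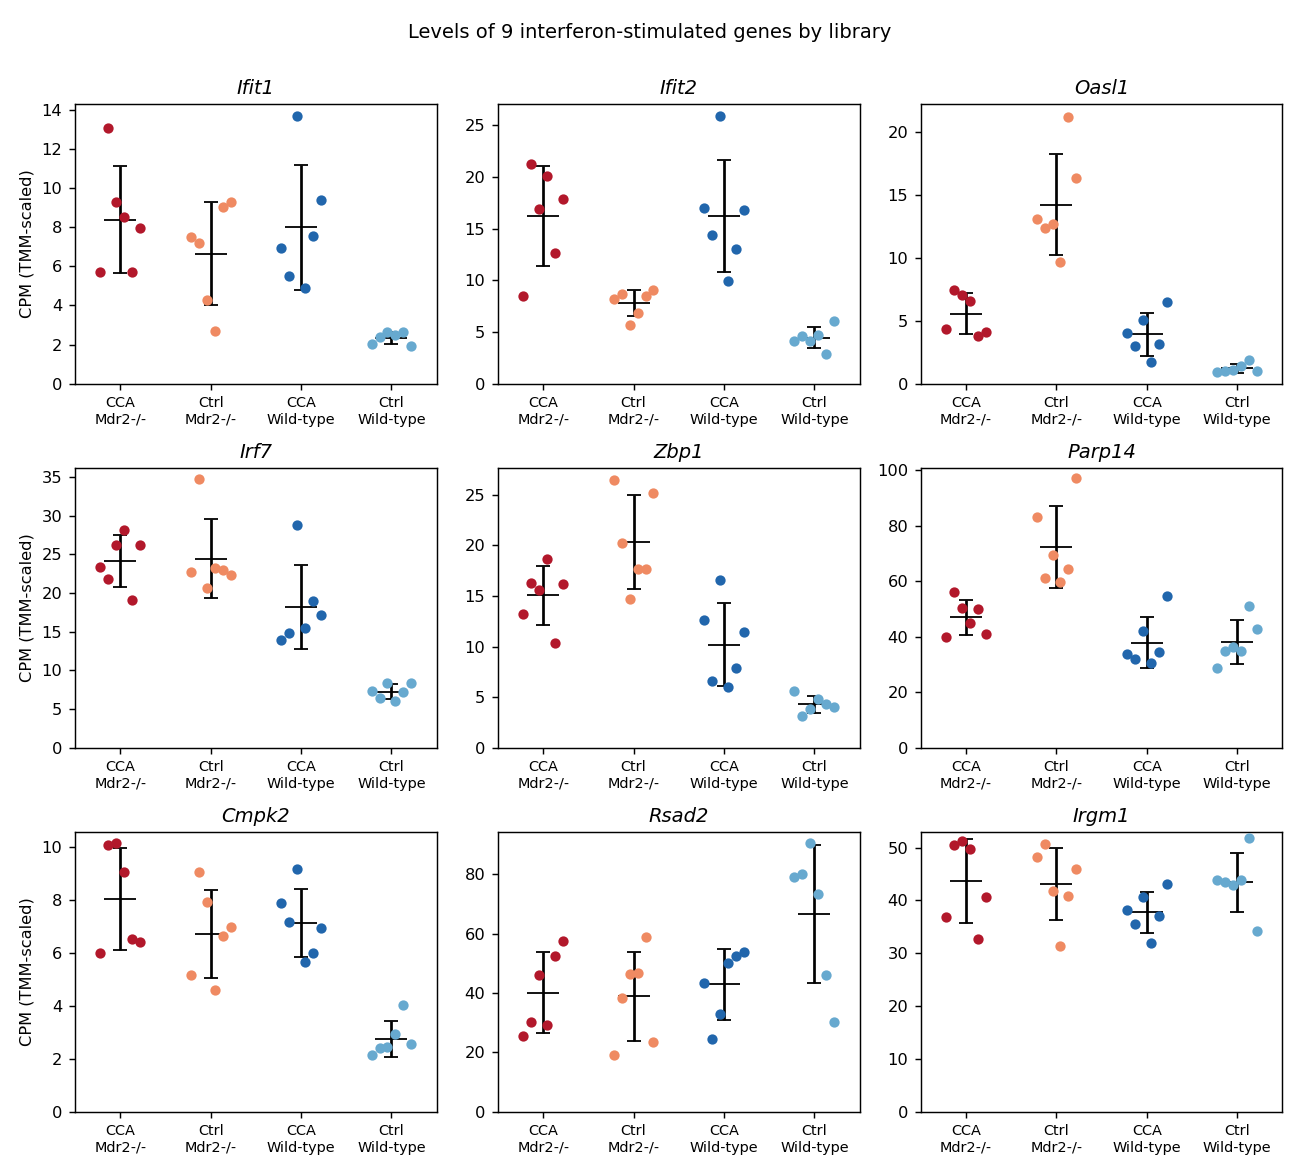
CPM (vertical axis) of Ifit1, Ifit2, Oasl1, Irf7, Zbp1, Parp14, Cmpk2, Rsad2 and Irgm1 in each library (points) by group (horizontal axis), with the group mean and standard deviation (n = 6). Oasl1, Zbp1 and Parp14 are highest in Ctrl.Mdr2-/- livers, Rsad2 is highest in Ctrl.Wild-type livers while its neighbour Cmpk2 is lowest there, and the 4 groups of Irgm1 overlap.

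Among the sensors, Zbp1 detects left-handed (Z-form) nucleic acid and can start necroptosis. Zbp1 lay at 10.4 to 18.7 CPM (median 15.9) in CCA.Mdr2-/- livers, 14.8 to 26.5 CPM (median 19) in Ctrl.Mdr2-/- livers, 5.97 to 16.6 CPM (median 9.65) in CCA.Wild-type livers and 3.18 to 5.62 CPM (median 4.18) in Ctrl.Wild-type livers. The wild-type groups were separate and the Mdr2-/- groups overlapped. It was higher in Ctrl.Mdr2-/- than in Ctrl.Wild-type livers by 2.24 ± 0.22, adjusted p = 2.63e-08 and rose by 1.25 ± 0.22, adjusted p = 0.00016 in the wild-type tumour comparison. In Mdr2-/- mice the value was -0.43 ± 0.21, adjusted p = 0.105, and the difference of effects was -1.68 ± 0.30, adjusted p = 0.00054. Dhx58 (LGP2), a partner of the RNA sensors, gave 1.0 ± 0.16, adjusted p = 4.62e-05 in the wild-type tumour comparison, 1.10 ± 0.16, adjusted p = 5.55e-06 between the genotypes in control livers and 0.13 ± 0.15, adjusted p = 0.513 in the Mdr2-/- tumour comparison. Ifih1 (MDA5), a sensor of long double-stranded RNA, overlapped between Ctrl.Mdr2-/- and Ctrl.Wild-type livers and was higher in Ctrl.Mdr2-/- livers (0.42 ± 0.15, adjusted p = 0.0237). That call was lost with upper-quartile factors (0.36) and a stricter filter (0.35). In the wild-type tumour comparison Ifih1 was higher only under total library size (0.41) and on the TPM scales (0.38 and 0.42). The median of all genes moved there by 0.30, 0.17 and 0.28.

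Isg15 is a ubiquitin-like protein that is joined to other proteins, and Usp18 removes it and also blocks the interferon receptor. Isg15 lay at 13.7 to 23.6 CPM (median 19.3) in CCA.Mdr2-/- livers, against 6.83 to 18.8 CPM (median 11) in Ctrl.Mdr2-/- livers (0.65 ± 0.23, adjusted p = 0.033), and at 9.28 to 29.1 CPM (median 18) in CCA.Wild-type livers, against 5.77 to 10.8 CPM (median 8.87) in Ctrl.Wild-type livers (1.09 ± 0.24, adjusted p = 0.00117). Both pairs overlapped, and the Mdr2-/- call was lost when CCA.Mdr2-/- replicate 1, 4 or 6 or Ctrl.Mdr2-/- replicate 1, 3, 4 or 6 was left out (0.53 to 0.65). Between control livers Isg15 did not pass (0.53 ± 0.23, adjusted p = 0.0639) but did without Ctrl.Mdr2-/- replicate 1 or Ctrl.Wild-type replicate 3 (0.62 to 0.65). It also passed under total library size (0.83), on the TPM scales (0.90 and 0.94), with the nuclear covariate (0.79) and without the pair of libraries apart (0.53). Usp18 behaved like Ifit1, with a rise in the wild-type tumour comparison (1.48 ± 0.22, adjusted p = 1.74e-05), a higher level in Ctrl.Mdr2-/- than in Ctrl.Wild-type livers (1.72 ± 0.22, adjusted p = 9.81e-07) and no call in the Mdr2-/- tumour comparison (0.23 ± 0.20, adjusted p = 0.374). Trim25, a ubiquitin ligase of the RIG-I pathway, went the other way and fell in both tumour comparisons. It lay at 64.2 to 92.2 CPM (median 81.1) in CCA.Mdr2-/- livers, against 83.1 to 120.2 CPM (median 102) in Ctrl.Mdr2-/- livers (-0.37 ± 0.11, adjusted p = 0.0123), and at 64.5 to 87.9 CPM (median 75.6) in CCA.Wild-type livers, against 86.1 to 101 CPM (median 94.5) in Ctrl.Wild-type livers (-0.33 ± 0.11, adjusted p = 0.0263). The wild-type call was lost without CCA.Wild-type replicate 3 or Ctrl.Wild-type replicate 2 (-0.31 to -0.28), with no filter on low counts and with the title number range as a covariate. Both falls depended on the scaling. Under total library size and on both TPM scales neither was called, and the wild-type value was -0.03 on each. The Mdr2-/- call was also lost with upper-quartile factors and with the nuclear covariate. On the first 3 scales Trim25 was higher in Ctrl.Mdr2-/- than in Ctrl.Wild-type livers (0.41, 0.54 and 0.55).

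Among the other effectors, the neighbours Rsad2 (viperin, which makes a chain-terminating nucleotide) and Cmpk2 (a mitochondrial nucleotide kinase) differed in opposite directions. Rsad2 lay at 25.4 to 57.5 CPM (median 38.2) in CCA.Mdr2-/- livers, 19.1 to 58.9 CPM (median 42.4) in Ctrl.Mdr2-/- livers, 24.4 to 54 CPM (median 46.8) in CCA.Wild-type livers and 30.3 to 90.6 CPM (median 76.3) in Ctrl.Wild-type livers. Cmpk2 lay at 6.0 to 10.2 CPM (median 7.81) in CCA.Mdr2-/- livers, 4.61 to 9.06 CPM (median 6.82) in Ctrl.Mdr2-/- livers, 5.67 to 9.17 CPM (median 7.06) in CCA.Wild-type livers and 2.14 to 4.06 CPM (median 2.50) in Ctrl.Wild-type livers. Between control livers Rsad2 was lower in Ctrl.Mdr2-/- (-0.78 ± 0.28, adjusted p = 0.0248), with overlap, and Cmpk2 was higher (1.28 ± 0.19, adjusted p = 1.13e-05), without overlap. The call of Rsad2 was lost when Ctrl.Mdr2-/- replicate 1 or 6 or Ctrl.Wild-type replicate 1, 2 or 3 was left out (-0.72 to -0.64). It was also lost under total library size (-0.46) and on the TPM scales (-0.32 and -0.33). With no filter on low counts (-0.74) and with the nuclear covariate (-0.74) it was lost as well. The wild-type tumour value of Rsad2 did not pass (-0.63 ± 0.28, adjusted p = 0.0931), except without Ctrl.Wild-type replicate 6 (-0.79), while that of Cmpk2 did (1.37 ± 0.19, adjusted p = 1.28e-05). The pair lies on opposite strands of chromosome 12, with Rsad2 on the minus strand at the lower coordinates. Transcription from the starts in the windows shown above therefore runs apart. Reads of any other transcript overlapping either gene could not be told apart without strand.

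Bst2 (tetherin), which holds budding viruses at the cell surface, was the most abundant member per length, at a mean of 270.4 TPM over the 24 libraries. It lay at 95.9 to 159 CPM (median 119) in CCA.Mdr2-/- livers and 116 to 187 CPM (median 137) in Ctrl.Mdr2-/- livers, against 107 to 131 CPM (median 119.8) in CCA.Wild-type livers and 50.1 to 72 CPM (median 64.3) in Ctrl.Wild-type livers. Ctrl.Wild-type livers were separate from the other 3 groups, with a wild-type tumour effect of 0.90 ± 0.14, adjusted p = 4.66e-05 and a genotype difference in control livers of 1.17 ± 0.14, adjusted p = 6.59e-07. Xaf1, known as an antagonist of the caspase inhibitor XIAP, rose by 1.45 ± 0.22, adjusted p = 2.12e-05 in the wild-type tumour comparison, and its smaller rise in Mdr2-/- mice (0.54 ± 0.20, adjusted p = 0.0428) was lost when any CCA.Mdr2-/- or Ctrl.Mdr2-/- replicate other than CCA.Mdr2-/- replicates 1 and 5 and Ctrl.Mdr2-/- replicate 5 was left out (0.45 to 0.54). Its difference of effects (-0.91 ± 0.30, adjusted p = 0.026) was lost without Ctrl.Mdr2-/- replicate 5 or CCA.Wild-type replicate 3 (-0.78 to -0.70). Rtp4 rose by 0.94 ± 0.18, adjusted p = 0.000369 in the wild-type tumour comparison and was higher in Ctrl.Mdr2-/- livers by 1.07 ± 0.18, adjusted p = 4.35e-05. Its difference of effects (-0.64 ± 0.25, adjusted p = 0.0619) passed only without CCA.Wild-type replicate 4 or Ctrl.Wild-type replicate 3 (-0.74 to -0.73) among the libraries left out. Parp14, a mono-ADP-ribosyltransferase, was like Oasl1 in standing highest in Ctrl.Mdr2-/- livers. It lay at 40.0 to 56.2 CPM (median 47.3) in CCA.Mdr2-/- livers and 59.8 to 97.2 CPM (median 66.7) in Ctrl.Mdr2-/- livers, against 30.5 to 54.8 CPM (median 34) in CCA.Wild-type livers and 28.7 to 51 CPM (median 35.5) in Ctrl.Wild-type livers. The Mdr2-/- groups were separate in CPM, with a fall of CCA.Mdr2-/- livers (-0.62 ± 0.16, adjusted p = 0.00518), while the wild-type groups overlapped (-0.01 ± 0.16, adjusted p = 0.981). The fall was not called under total library size (-0.38), on the TPM scales (-0.46 and -0.49) or with the nuclear covariate (-0.14). In TPM the Mdr2-/- groups overlapped, at 8.08 to 15.4 in CCA.Mdr2-/- livers and 13.2 to 27.1 in Ctrl.Mdr2-/- livers. The difference of the tumour effects (-0.62 ± 0.22, adjusted p = 0.0448) was lost when 1 of 13 libraries was left out, namely CCA.Mdr2-/- replicate 1, 4, 5 or 6, Ctrl.Mdr2-/- replicate 1, 3 or 6, CCA.Wild-type replicate 3 or 6, or Ctrl.Wild-type replicate 1 to 4 (-0.63 to -0.48). It was also lost with upper-quartile factors, a stricter filter and both TPM scales. Without the pair of libraries apart and with either covariate it was lost as well.

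Ifi44 and Ifi35 were the 2 members whose CCA.Mdr2-/- libraries all lay above all Ctrl.Mdr2-/- libraries, as did 7.38% of all genes. Ifi44 lay at 5.87 to 10.8 CPM (median 6.85) in CCA.Mdr2-/- livers, against 1.97 to 5.13 CPM (median 3.23) in Ctrl.Mdr2-/- livers (1.07 ± 0.25, adjusted p = 0.0032), and at 3.90 to 10.5 CPM (median 5.09) in CCA.Wild-type livers, against 1.03 to 2.36 CPM (median 1.96) in Ctrl.Wild-type livers (1.79 ± 0.27, adjusted p = 2.38e-05). Both pairs were separate. Ifi35 lay at 29.8 to 46.7 CPM (median 36.1) in CCA.Mdr2-/- livers, against 18.5 to 26.9 CPM (median 21.6) in Ctrl.Mdr2-/- livers (0.72 ± 0.17, adjusted p = 0.0031), and at 18.7 to 39.1 CPM (median 33.4) in CCA.Wild-type livers, against 16.9 to 32.5 CPM (median 27.8) in Ctrl.Wild-type livers, which overlapped (0.26 ± 0.17, adjusted p = 0.269). The wild-type value of Ifi35 passed under total library size (0.56) and on the TPM scales (0.53 and 0.55). The difference between the tumour effects of Ifi35 did not pass (0.46 ± 0.24, adjusted p = 0.15). Within groups the low values gathered in a few libraries: CCA.Wild-type replicate 4 and CCA.Mdr2-/- replicate 5 each held the lowest value of their group for 16 of the 33 members, and Ctrl.Mdr2-/- replicate 3 for 15.

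Interferon transcripts were near the limit of detection. Of 15 ligand genes in the table, 9 were at 0 in all 24 libraries, Ifna1, Ifna2 and Ifnl2 among them. Ifnb1 was at 0 in 23 libraries, and Ifng was at 0 in 7 and reached 0.274 CPM at most. Ifnk passed the filter, at 0.146 to 0.776 CPM (median 0.441) in CCA.Mdr2-/- livers and 0.289 to 0.632 CPM (median 0.367) in Ctrl.Mdr2-/- livers, against 0.138 to 0.649 CPM (median 0.380) in CCA.Wild-type livers and 0.468 to 0.959 CPM (median 0.687) in Ctrl.Wild-type livers, and passed in no comparison. A transcript at 0 in a library of this depth was not detectable, which does not show that it was absent. Of the 6 receptor chains, 4 rose in the wild-type tumour comparison (16.9% of all genes) and 4 were higher in Ctrl.Mdr2-/- than in Ctrl.Wild-type livers (26.2% of all genes). In the Mdr2-/- tumour comparison 1 fell (Ifnar2, -0.25 ± 0.09, adjusted p = 0.0363), a share near the 17.0% of all genes. Ifnlr1, the chain specific to type III interferon, lay at 0.737 to 2.57 CPM (median 1.85) in CCA.Mdr2-/- livers, 1.30 to 2.18 CPM (median 1.58) in Ctrl.Mdr2-/- livers, 0.260 to 1.45 CPM (median 1.11) in CCA.Wild-type livers and 0.0430 to 0.219 CPM (median 0.131) in Ctrl.Wild-type livers. Ctrl.Wild-type livers were separate from the rest, by 3.58 ± 0.42, adjusted p = 2.92e-07 for Ctrl.Mdr2-/- livers and 2.88 ± 0.42, adjusted p = 1.97e-05 for CCA.Wild-type livers.

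Among the factors that carry interferon and cytokine signals, Stat3, the main factor of the interleukin-6 response, fell in the Mdr2-/- tumour comparison (-0.62 ± 0.18, adjusted p = 0.0105). Of 6 negative regulators, 2 were higher and 1 lower in Ctrl.Mdr2-/- than in Ctrl.Wild-type livers, against 26.2% and 24.3% of all genes. In the wild-type tumour comparison 2 rose and 1 fell, against 16.9% and 11.5% of all genes. In the Mdr2-/- one 1 rose and 2 fell, against 17.9% and 17.0%. Socs3, an inhibitor of JAK kinases, was higher in Ctrl.Mdr2-/- than in Ctrl.Wild-type livers (1.33 ± 0.24, adjusted p = 7.61e-05) and rose in the wild-type tumour comparison (0.66 ± 0.24, adjusted p = 0.0378), with a difference of tumour effects of -1.22 ± 0.33, adjusted p = 0.0103. Of 14 genes tested that sense nucleic acid or relay to interferon, 9 were higher in Ctrl.Mdr2-/- than in Ctrl.Wild-type livers, where 26.2% of all genes were (median log2 fold change 0.68). In the Mdr2-/- tumour comparison 8 fell, against 17.0% of all genes (median -0.48). In the wild-type one 3 rose and 2 fell, shares near the 16.9% and 11.5% of all genes. Ikbke, a kinase that activates Irf3 and Irf7, lay at 12.8 to 17.6 CPM (median 15) in CCA.Mdr2-/- livers and 27.4 to 46.3 CPM (median 35.2) in Ctrl.Mdr2-/- livers, against 12.2 to 15.8 CPM (median 13.5) in CCA.Wild-type livers and 6.72 to 16.7 CPM (median 10.1) in Ctrl.Wild-type livers. Its Ctrl.Mdr2-/- libraries were above those of all other groups, as for Oasl1, with 1.68 ± 0.19, adjusted p = 2.2e-07 against Ctrl.Wild-type livers and a fall of CCA.Mdr2-/- livers (-1.28 ± 0.19, adjusted p = 4.13e-05). Mavs (-0.94 ± 0.23) and Ticam1 (-0.81 ± 0.21), adaptors of the RNA sensors and of Tlr3, also fell there.

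A further 40 interferon-stimulated genes outside the list of 33 were tested. In the wild-type tumour comparison 21 rose, against 16.9% of all genes (median log2 fold change 0.54), and Ctrl.Mdr2-/- livers had 23 higher than Ctrl.Wild-type livers, against 26.2% of all genes (median 0.60). The Mdr2-/- tumour comparison had 10 up and 8 down, near the 17.9% and 17.0% of all genes (median -0.05). The difference of tumour effects was called for 10, all lower in Mdr2-/- mice, against 13.4% of all genes, and 2 were higher in CCA.Mdr2-/- than in CCA.Wild-type livers. Ifi27l2b, of the mitochondrial and nuclear-envelope Ifi27 family, lay at 21.7 to 38.6 CPM (median 30.1) in CCA.Mdr2-/- livers and 29.5 to 49.7 CPM (median 46.1) in Ctrl.Mdr2-/- livers, against 12 to 22.8 CPM (median 15.7) in CCA.Wild-type livers and 1.50 to 2.21 CPM (median 1.76) in Ctrl.Wild-type livers. Ctrl.Wild-type livers were separate from the other 3 groups. The difference was 4.60 ± 0.19, adjusted p = 1.14e-14 between the genotypes in control livers and 3.22 ± 0.19, adjusted p = 2.24e-11 in the wild-type tumour comparison. Slfn9 of the schlafen family (2.87 ± 0.27 and 1.92 ± 0.27) and Apol9a (2.28 ± 0.19 and 1.60 ± 0.18) gave the same 2 calls and fell in CCA.Mdr2-/- livers (-0.89 ± 0.25 and -0.59 ± 0.18).

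Markers of other cells were called in the same comparisons, to differing extents. Of all genes, 26.2% were higher and 24.3% lower in Ctrl.Mdr2-/- than in Ctrl.Wild-type livers. Between the tumour-bearing groups 7.13% were higher in CCA.Mdr2-/- livers. In the wild-type tumour comparison 16.9% rose, and in the Mdr2-/- one 17.9% rose and 17.0% fell. The difference of tumour effects was called lower in Mdr2-/- mice for 13.4%. Of 9 monocyte and macrophage markers, 9 were higher in Ctrl.Mdr2-/- than in Ctrl.Wild-type livers, 6 rose in the wild-type tumour comparison and 1 fell in the Mdr2-/- tumour comparison. The difference of tumour effects was called for 7 of them, all lower in Mdr2-/- mice, as for the 12 members. It was likewise called lower for 3 of 5 Kupffer cell markers and 2 of 6 plasmacytoid dendritic cell markers. Of 9 T and NK cell markers 0 were called, by edgeR or by DESeq2. The summed level of the monocyte and macrophage markers was 490 to 946 CPM in CCA.Mdr2-/- livers and 434 to 874 in Ctrl.Mdr2-/- livers, against 242 to 503 in CCA.Wild-type livers and 177 to 243 in Ctrl.Wild-type livers. Of these markers Lyz2 reached 756 CPM and the next, Csf1r, 118 CPM, so the high sums rest largely on Lyz2. CCA.Wild-type replicate 3, high in its group for most members, also had the highest of its group's sums, 503 CPM. Ctrl.Wild-type replicate 3 likewise had its group's highest sum (243 CPM) and highest IFIT, OAS and MX median of log2 CPM over the Ctrl.Wild-type mean (0.13). In the Mdr2-/- groups the library with the highest sum had the lowest such median. These were CCA.Mdr2-/- replicate 1 (946 CPM, median 1.11) and Ctrl.Mdr2-/- replicate 4 (874 CPM, median 0.64). Of 5 Kupffer cell markers, 3 fell in the Mdr2-/- tumour comparison, 2 rose in the wild-type one and 2 were higher in Ctrl.Mdr2-/- than in Ctrl.Wild-type livers, with sums of 165 to 470.4 CPM in CCA.Mdr2-/- livers, 226 to 386 in Ctrl.Mdr2-/- livers, 282 to 420.4 in CCA.Wild-type livers and 226 to 303 in Ctrl.Wild-type livers. Of 9 T and NK cell markers, 6 were higher in Ctrl.Mdr2-/- than in Ctrl.Wild-type livers and 6 in CCA.Mdr2-/- than in CCA.Wild-type livers. In the wild-type tumour comparison edgeR and DESeq2 each called 0 of them (edgeR median log2 fold change 0.03), with 0 at an unadjusted p under 0.05, and 1 rose in the Mdr2-/- one. Their sums were 10.2 to 29.2 CPM in CCA.Mdr2-/- livers, 9.02 to 26.5 in Ctrl.Mdr2-/- livers, 5.26 to 11.9 in CCA.Wild-type livers and 6.31 to 9.97 in Ctrl.Wild-type livers. Of 6 plasmacytoid dendritic cell markers, 3 were higher and 1 lower in Ctrl.Mdr2-/- than in Ctrl.Wild-type livers, with sums of 59.8 to 79.2 CPM in CCA.Mdr2-/- livers, 51.7 to 64.6 in Ctrl.Mdr2-/- livers, 48.8 to 63.7 in CCA.Wild-type livers and 41.2 to 71.3 in Ctrl.Wild-type livers. Of these markers Tcf4 reached 59.9 CPM and the next, Irf8, 16.9 CPM. Every marker of these 4 lists had counts in all 24 libraries, except in a second, nearly empty entry for Itgam in the table. The part of these cells in the levels of the members was not tested. The share of counts in 7 nuclear non-coding RNAs, among them Malat1, Neat1 and Xist, was 4.60 to 7.95% in CCA.Mdr2-/- livers, against 1.74 to 4.29% in Ctrl.Mdr2-/- livers, with no overlap. It was 2.30 to 6.51% in CCA.Wild-type livers, against 2.91 to 5.42% in Ctrl.Wild-type livers. With this share as a covariate 1 member, Ifit2, rose in the Mdr2-/- tumour comparison (1.12 ± 0.28, adjusted p = 0.0163) and 0 fell, where edgeR without it called 7 and 3, and the fall of Oasl1 did not pass (-0.75 ± 0.27, adjusted p = 0.0937). Of the other calls lost, Ifi44 was at 0.83 with the covariate, Mx1 at 0.68, Oas1a at 0.60, Xaf1 at 0.36, Ifi35 at 0.15, Isg15 at 0.04, Parp14 at -0.14 and Trim25 at -0.33. The standard errors grew for some, to 0.47 for Mx1, against 0.35 without the covariate.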

How the data were processed

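Total RNA of 24 mouse liver samples was sequenced as read pairs after removal of ribosomal RNA by a kit whose name refers to bacteria, per the labels' protocols. The authors deposited raw counts per gene, and TPM values corrected for gene length, with an equal sum in each library. The submitters' processing notes name build mm39 and DESeq2. Aligner, counter, annotation release and strandedness: not given in the sources used here. Groups come from the treatment labels, with 6 libraries each. The members, the other gene lists and the alternatives were chosen with earlier results of these data known.

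Counts were tested with edgeR 4.0.16 in R 4.3.3: filterByExpr (minimum count 10, by group), TMM scaling, and robust quasi-likelihood fits with 2-sided tests, all 24 libraries in 1 model with group means. The filter kept 17216 of 49315 genes, and 174 genes without a symbol stayed in the fits. Calls rest on an adjusted p under 0.05 (Benjamini-Hochberg, all genes tested). CPM values are TMM-scaled counts. The biological coefficient of variation was 0.272. The model steps were checked on simulated data. All 33 members could be named, and from each other list up to 3 called genes of largest change per direction and comparison, or the 2 most abundant where none was called. Alternatives were DESeq2 1.42.0, limma 3.58.1 on log2(TPM + 1) and log2(TPM + 0.1), other scalings and filters, subsets of libraries and 2 covariates. Tables and plots used Python 3.11.15, numpy 2.4.6, pandas 2.3.3 and matplotlib 3.10.9. Promoter sequences are RefSeq's on GRCm38.p6, a build other than the counts', and serve for sequence alone. Results for 1 signalling gene are not reported here.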

Additional observations from a re-analysis of the deposited data

Results flagged for a closer look

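Single libraries far from the rest of their group were found for 9 of 132 combinations of a member and a group, by Dixon's criterion for 6 values, which chance meets in about 1 of 20 groups. CCA.Wild-type replicate 3 gave 3 of them. It had 28.8 CPM of Irf7, against 14.0 to 18.9 in the other libraries of its group, 12.2 CPM of Usp18, against 5.06 to 7.09, and 12.9 CPM of Xaf1, against 5.63 to 7.39. Ctrl.Mdr2-/- replicate 2 had 34.7 CPM of Irf7, against 20.6 to 23.2, and 3.43 CPM of Oas1a, against 2.10 to 2.48. Ctrl.Wild-type replicate 6 had 59.7 CPM of Ifih1, against 33.6 to 42.7, and 11.8 CPM of Gbp2, against 7.81 to 9.12. CCA.Wild-type replicate 6 had 38.8 CPM of Stat2, against 25.6 to 29.6, and CCA.Mdr2-/- replicate 6 had 10.8 CPM of Ifi44, against 5.87 to 7.45. All 9 values were the highest of their group.

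The tumour effect in Mdr2-/- minus that in wild-type mice passed the test of the difference itself for 12 members, on the log2 scale: Oasl1 (-3.03), Zbp1 (-1.68), Ifit3 (-1.60), Ifit1 (-1.43), Irf7 (-1.34), Usp18 (-1.25), Cmpk2 (-1.11), Bst2 (-1.10), Xaf1 (-0.91), Dhx58 (-0.87), Parp14 (-0.62) and Irf9 (-0.51). The calls of Ifit1, Irf9, Xaf1 and Parp14 were lost under some of the alternatives below.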

How the results depend on the processing

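Calls held under every alternative, each library left out included, for 18 of 22 members in the wild-type tumour comparison, 19 of 23 between the genotypes in control livers, 8 of 12 for the difference of effects, 1 of 10 in the Mdr2-/- tumour comparison and 1 of 2 between the tumour-bearing groups. In the Mdr2-/- tumour comparison, members up numbered 12 under total library size and 1 with a covariate for the nuclear non-coding share. Members down there numbered 1 under total library size and on either TPM scale, and 0 with that covariate. The count down in the wild-type tumour comparison became 0 under total library size, with no filter, on either TPM scale and with the range of the sample title numbers (below 2000 or not) as a covariate. All CCA.Wild-type title numbers lie above all Ctrl.Wild-type ones. In that comparison title order and tumour therefore cannot be told apart, with or without this covariate. The same limit holds for the difference of effects, which contains that comparison. Between control livers the count down became 0 under total library size, with no filter, on either TPM scale and with the nuclear covariate, and 2 without the pair of libraries apart. Between the tumour-bearing groups, members up numbered 12 under total library size, 13 on log2(TPM + 1), 12 on log2(TPM + 0.1), 1 with only the libraries compared, 5 without the libraries apart, 1 with the title range and 4 with the nuclear covariate. The cause was not tested, beyond the shift that a scaling gives to all genes.

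Leaving out each library in turn gave 4 to 7 members up and 3 to 4 down in the Mdr2-/- tumour comparison, 18 to 21 up and 0 to 2 down in the wild-type one, 20 to 22 up and 0 to 2 down between control livers, 10 to 14 down and 0 up for the difference of effects, and 1 to 9 up and 0 down between the tumour-bearing groups. The 4 came without CCA.Mdr2-/- replicate 6 and the 9 without CCA.Wild-type replicate 3. The sign of Irgm1 between control livers reversed to 0.41 and 0.44 on the TPM scales. No paired analysis was possible because replicate numbers were given in label order and link no libraries. Members such as Mx1 and Oas2, near 1 CPM, rest on few counts in each library, which limits their precision.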
